A study of Mus musculus with 4 samples.

Results

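The T cell receptor (TCR) loci were followed in T29 cells, a mouse line from a thymic lymphoma, through the 18 probe sets whose annotated gene symbols name a TCR segment or locus. These were 18 of 45037 non-control probe sets on Affymetrix GeneChip expression arrays. Every probe set was taken whose symbol field held a variable, diversity, joining or constant TCR gene or a whole TCR locus, so the rule used gene names and no expression values. The alpha locus had 10 probe sets, the beta locus 3, the gamma locus 5 and the delta locus 0. Cells were exposed to MRK003, which blocks gamma-secretase and is called GSI here, at a dose that the labels write as 5 mM for 36 h, or to DMSO, the solvent. There were 2 arrays per group, and all cells belonged to the same line, so any property of that line was shared by both groups. The labels do not say whether replicates were separate cultures, so the p-values measure only how far these samples lie apart, and that spread may be technical.

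TCR genes are assembled in developing thymocytes by joining variable (V), diversity and joining segments, which are then spliced to a constant region. The beta, gamma and delta loci rearrange first, and a beta chain paired with the pre-TCR alpha chain signals before the alpha locus opens. The delta segments lie inside the alpha locus, and the joining of an alpha chain deletes them. Gamma-secretase releases the intracellular part of Notch receptors, and Notch signalling is needed in thymocytes up to the stage at which the beta chain is selected. Segments that have not been joined can also be transcribed, as so-called germline transcripts.

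What a probe set of such a family measures needs care. The 18 probe sets carried 11 different symbols, 10 of them V segments and the remaining one, Tcra, the whole alpha locus. The RefSeq annotation of mouse assembly GRCm38.p6 lists 114 V alpha segments, 22 V beta segments and 7 V gamma segments, of which 5, 2 and 3 were named by a probe set. None of the 18 carried a constant region symbol. The name Trav9d-3 was given to 5 probe sets and Trgv4 to 4, of which 1 also named Trgv2. The Trav9 family has 11 members in that annotation, and the Trav12, Trav6 and Trav13 families have 9, 15 and 13. Of the 18, 9 had a suffix that marks shared or similar targets: 4 ended in _x_at (some probes match other transcripts), 4 in _a_at (probes shared by transcript variants of a gene) and 1 in _s_at (probes shared by several genes). Probe sets of this array type are mostly designed from the end of the transcript that holds the constant region in a TCR mRNA. Where the probes of these 18 lie was not analysed here, so the segment names are those of the annotation, and which segment or constant region was bound is uncertain.

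Across the TCR probe sets, 3 of 18 rose with GSI at an adjusted p under 0.05 and 0 fell (limma over all probe sets with Benjamini-Hochberg adjustment). All 3 belonged to the alpha locus and carried the name Trav9d-3, and their rises were 3.54-fold to 4.02-fold. Among all probe sets 0.948% were called higher and 0.446% lower. With no adjustment, 5 TCR probe sets were higher and 2 lower at p under 0.05, against 8.17% and 8.23% of all probe sets. The median log2 difference of the 18, GSI minus DMSO, was 0.0007, beside -0.0122 over all probe sets. Both GSI arrays lay above both DMSO arrays in 6 TCR probe sets, all of the alpha locus, and below them in 4, of which 2 were of the beta and 2 of the gamma locus. These proportions stand beside 21.3% and 25.2% of all probe sets. By mean, 9 of 10 alpha probe sets were higher with GSI, and all 3 beta and all 5 gamma probe sets were lower. Of all 45037 probe sets, 21083 were higher and 23950 lower by mean. With cyclic loess the remaining alpha probe set, 1427766_at, was higher too (0.0111), and no sign changed with centred arrays. With 1 array left out, 2 or 3 of the 18 signs changed, depending on the array. Probe sets given the same name may share targets, so these counts are not counts of independent genes.

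The alpha locus on chromosome 14 held the called probe sets. Probe set 1426168_a_at, named Trav9d-3, read 9.11 and 8.85 on the GSI arrays, against 6.99 and 6.96 on the DMSO arrays, all as log2 values. The lowest GSI array was thus well above the highest DMSO array. The mean was 8.98 ± 0.18 with GSI and 6.98 ± 0.02 with DMSO (SD, n = 2), a 4.02-fold rise with a 95% confidence interval of 3.29 to 4.91 (limma, adjusted p = 0.00546). It was the 17th largest rise of all 45037 probe sets.

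The other called Trav9d-3 probe sets gave similar sizes. Probe set 1452405_x_at read 9.53 and 9.41 with GSI, against 7.72 and 7.52 with DMSO, a 3.60-fold rise with an interval of 2.97 to 4.37 (limma, adjusted p = 0.00614). Probe set 1426113_x_at read 9.70 and 9.47 with GSI, against 7.78 and 7.74 with DMSO, a 3.54-fold rise with an interval of 2.92 to 4.29 (limma, adjusted p = 0.00614). All 3 were higher on GSI replicate 1 than on GSI replicate 2, by 0.11 to 0.26, which is small beside the group differences of 1.82 to 2.01 on the log2 scale. They share a name and carry the suffixes _x_at and _a_at, and whether they report the same transcripts was not tested. The 3 calls rested on all 4 arrays. With any 1 array left out the differences stayed between 1.71 and 2.13, but limma's adjusted p lay between 0.128 and 0.342, and 0 of all 45037 probe sets were then called.

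The remaining Trav9d-3 probe sets did not pass. Probe set 1427653_at read 4.72 and 4.58 with GSI, against 4.54 and 4.41 with DMSO, a difference of 0.18 with a 95% confidence interval of -0.08 to 0.44. Probe set 1427766_at read 3.19 and 3.30 with GSI, against 3.38 and 3.13 with DMSO, a difference of -0.01 with an interval of -0.31 to 0.28. The GSI and DMSO arrays overlapped in the second of these and not in the first. Both lay under the median of all values, 4.88, whereas the 3 called probe sets read above it on every array. The probe sets given the same segment name therefore did not show the same difference, with intervals that do not overlap between the called and the uncalled ones.

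Among the other alpha probe sets, those named for Trav12 segments had the next largest differences. Trav12n-2 (1446476_at) read 5.47 and 4.88 with GSI, against 4.07 and 4.49 with DMSO, a difference of 0.89 with an interval of 0.32 to 1.47 (limma, adjusted p = 0.148). Trav12n-1 (1449644_at) read 4.57 and 4.52 with GSI, against 4.05 and 3.63 with DMSO, a difference of 0.71 with an interval of 0.33 to 1.08 (limma, adjusted p = 0.102). Neither passed, although the groups did not overlap, and the arrays within a group lay up to 0.59 apart. Trav12n-1 passed once limma's prior was made robust and allowed to follow intensity (adjusted p = 0.0484).

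Trav6-3 (1441286_at) read 3.67 and 3.43 with GSI, against 3.58 and 3.22 with DMSO, and Trav13-5 (1445369_at) read 3.40 and 3.31 with GSI, against 3.37 and 3.31 with DMSO. Their differences were 0.15 and 0.01, with intervals of -0.24 to 0.54 and -0.22 to 0.25, and the groups overlapped. The probe set named for the whole locus, Tcra (1443140_at), read 2.48 and 2.55 with GSI, against 2.41 and 2.52 with DMSO. It lay at the 3.37th percentile of mean levels over all probe sets, among the dimmest on the arrays, and its difference of 0.04 had an interval of -0.19 to 0.28.

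In the order of V alpha segments in GRCm38.p6, counted from the end far from the constant region, Trav9d-3 is the 27th of 114, Trav12n-1 the 50th, Trav12n-2 the 57th, Trav6-3 the 76th and Trav13-5 the 110th. The largest difference per segment was thus 2.01, 0.71, 0.89, 0.15 and 0.01 in that order. For Trav9d-3 it was the largest of 5 probe sets, of which the uncalled ones differed by 0.18 and -0.01. The other segments had a single probe set each. This is a description of 5 segment names. Which members of their families the probe sets bound, or whether they bound the constant region, was not tested. The Trav12n-1, Trav12n-2, Trav6-3 and Trav13-5 probe sets all had means over the 4 arrays under the median of all values, where RMA compresses differences, and the part of dimness in this order was not tested.

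Of the genes next to the alpha and delta loci, 1 of 10 rose. The 5 nearest measured genes on each side were taken in GRCm38.p6 order after the TCR values were known. Slc7a7, which encodes a light subunit of an amino acid transporter and is the fifth measured gene after the constant region, read 5.15 and 4.95 with GSI, against 4.07 and 3.99 with DMSO, a 2.03-fold rise (limma, adjusted p = 0.0193). Dad1, the nearest measured gene after Trac, next to the enhancer of the alpha locus, had a log2 difference of 0.12 with an interval of -0.11 to 0.35. Sall2, Abhd4 and Rab2b differed by 0.30, 0.39 and 0.42 and did not pass. The 4 other measured genes that lie between the first and last segments, 3 of them olfactory receptor genes, differed by -0.19 to 0.08 and did not pass. Of these 14 genes in and beside the locus, 12 were higher by mean, beside 8555 of all 18193 genes. Before adjustment 4 were higher and 0 lower at p under 0.05. In this gene-level reading, 1 probe set stood for each gene, and 1.26% of all genes were called higher and 0.599% lower, and 9.84% and 9.55% had p under 0.05 before adjustment. Whether the neighbours and the TCR probe sets moved together was not tested.

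At the beta locus on chromosome 6, 0 of 3 probe sets passed limma, and before adjustment 2 were lower at p under 0.05. Of all probe sets 0.446% were called lower, and 8.23% were lower at p under 0.05 before adjustment. The beta chain pairs with the alpha chain in the mature receptor. Probe set 1452205_x_at, annotated to Trbv1, read 12.13 and 12.01 on the GSI arrays, against 12.14 and 12.08 on the DMSO arrays. It lay at the 99.1th percentile of mean levels over all probe sets, and the groups overlapped. Its difference of -0.04 had an interval of -0.28 to 0.20, so that ratios of GSI to DMSO from 0.825 to 1.15 lie inside it.

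The other beta probe sets had both GSI arrays below both DMSO arrays, as did 25.2% of all probe sets. Trbv13-2 (1427628_at) read 7.22 and 7.02 with GSI, against 7.73 and 7.52 with DMSO, a difference of -0.51 with an interval of -0.81 to -0.20 (limma, adjusted p = 0.130). The second Trbv1 probe set (1433108_at) read 5.34 and 5.32 with GSI, against 5.60 and 5.57 with DMSO, a difference of -0.25 with an interval of -0.48 to -0.03 (limma, adjusted p = 0.248). Neither passed. The 5 measured genes inside the beta locus, among them the trypsin genes Prss2 and Prss3, and the 5 on each side of it, 15 in all, differed by -0.27 to 0.17, and 0 of them passed limma or had p under 0.05 before adjustment.

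At the gamma locus on chromosome 13, 0 of 5 probe sets passed limma, and 0 had p under 0.05 before adjustment. Gamma chains pair with delta chains in gamma delta T cells, and gamma genes can also be rearranged in cells of the alpha beta lineage. Trgv1 (1427608_a_at) read 10.23 and 10.16 with GSI, against 10.28 and 10.38 with DMSO, a difference of -0.14 with an interval of -0.37 to 0.10. The probe set shared by Trgv4 and Trgv2 (1422188_s_at) read 9.66 and 9.68 with GSI, against 9.92 and 9.85 with DMSO, a difference of -0.21 with an interval of -0.44 to 0.01. In both, the GSI arrays lay below the DMSO arrays, as in 25.2% of all probe sets. Both were bright, at the 95.2th and 93.4th percentile of mean levels.

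The 3 other Trgv4 probe sets were dimmer. Probe set 1450521_a_at read 5.21 and 5.37 with GSI, against 5.45 and 5.37 with DMSO, and 1422189_x_at read 5.12 and 4.87 with GSI, against 5.21 and 4.94 with DMSO. Probe set 1427802_a_at read 2.92 and 2.55 with GSI, against 2.62 and 3.22 with DMSO. Their groups overlapped, and their differences were -0.12, -0.08 and -0.18, with intervals of -0.37 to 0.14, -0.42 to 0.27 and -0.74 to 0.38. Of the 10 measured neighbours of the gamma locus 0 passed limma, with 1 higher and 4 lower at p under 0.05 before adjustment, beside 9.84% and 9.55% of all genes. Stard3nl, the nearest measured gene after it, differed by -0.50 with an interval of -0.78 to -0.21.

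Transcripts of the proteins that form the TCR complex with these chains or signal from it changed in both directions. Of 12 measured genes of the TCR complex, pre-TCR and coreceptors, 4 rose and 1 fell, beside 1.26% and 0.599% of all genes. Before adjustment 6 were higher and 3 lower at p under 0.05, beside 9.84% and 9.55% of all genes, and the median log2 difference was 0.42, beside -0.01 over all genes. Ptcra, which encodes the pre-TCR alpha chain that partners the beta chain before an alpha chain is made, read 8.53 and 8.64 with GSI, against 10.37 and 10.20 with DMSO, and fell 3.26-fold (limma, adjusted p = 0.00614). Its groups were far apart, in the opposite direction to the Trav9d-3 probe sets. The rises were Cd8a (2.11-fold) and Cd8b1 (1.96-fold), the chains of the CD8 coreceptor, Cd247 (1.75-fold), the zeta signalling chain, and Themis (1.62-fold), a signalling protein of thymocyte selection. The CD3 chain genes did not pass: Cd3e, Cd3d and Cd3g differed by -0.14, -0.30 and -0.47, and Cd4 differed by 0.75.

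Among 14 measured genes of segment joining and locus accessibility, 1 rose and 0 fell, beside 1.26% and 0.599% of all genes. The median log2 difference was 0.11, beside -0.01 over all genes. Lig4, the ligase that seals the joined ends, rose 1.54-fold (limma, adjusted p = 0.0499). Without adjustment 2 of these genes were higher and 1 lower at p under 0.05, beside 9.84% and 9.55% of all genes. Rag1, a subunit of the recombinase that cuts the segments, read 11.96 and 12.08 with GSI, against 11.88 and 11.95 with DMSO, so its arrays were nearly level. Its partner Rag2 read 6.58 and 7.01 with GSI, against 7.55 and 7.55 with DMSO, a difference of -0.75 that did not pass (limma, adjusted p = 0.0946). Dntt, the polymerase that adds bases at the joints, differed by 0.38 and did not pass.

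Among 14 measured transcription factors and receptors that act on the TCR loci, 1 fell and 0 rose, beside 0.599% and 1.26% of all genes. The median was 0.19, beside -0.01 over all genes. Before adjustment 4 were higher and 1 lower at p under 0.05, beside 9.84% and 9.55% of all genes. Lef1, which binds the alpha enhancer, read 10.67 and 10.74 with GSI, against 11.35 and 11.39 with DMSO, and fell 1.58-fold (limma, adjusted p = 0.0378). Gata3, a regulator of T cell development, differed by 0.63 (limma, adjusted p = 0.0733). The enhancer-binding factors Ets1, Runx1 and Myb differed by 0.22, 0.35 and 0.02 and did not pass.

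The arrays carried the markers of a T lineage line. Of 7 measured T lineage markers, 5 lay above the median of all values, among them the CD3 chains and Thy1, while Cd2 and Cd5 lay under it, with means of 3.78 and 4.27 with GSI and 4.57 and 3.83 with DMSO. Of these 7, 1 rose (Cd247) and 0 fell, beside 1.26% and 0.599% of all genes, with 3 higher and 3 lower at p under 0.05 before adjustment, beside 9.84% and 9.55%. That median divides the array, with 22512 of all 45037 probe sets having a mean at or above it. Under it lay 4 of 6 B cell markers, 5 of 7 natural killer markers, 5 of 7 myeloid markers and 2 of 7 gamma delta T cell markers. The sums of their log2 values were 25.0 to 25.3 with GSI and 24.7 to 25.0 with DMSO for B cells, of whose 6 markers 0 passed limma and 1 was higher before adjustment. They were 32.6 to 34.5 with GSI and 32.3 to 33.1 with DMSO for myeloid cells, of whose 7 markers 0 passed limma, with 1 higher and 1 lower before adjustment. For natural killer markers they were 37.0 to 37.1 with GSI and 35.5 to 35.9 with DMSO. Among these markers Gzma, a granzyme gene, was bright, at the 99.3th percentile of mean levels. Gzma rose 2.28-fold (limma, adjusted p = 0.0102). The 6 natural killer markers without a call summed to 24.1 to 24.2 with GSI and 23.8 to 24.2 with DMSO. The gamma delta T cell list summed to 40.4 to 42.1 with GSI and 38.5 to 39.1 with DMSO, and of its 7 genes 1 rose, the transcription factor gene Maf, 5.46-fold (limma, adjusted p = 0.0102). The 6 genes of that list without a call summed to 32.2 to 33.4 with GSI and 32.7 to 32.9 with DMSO, so the groups overlapped without Maf. Among them Cd163l1 differed by -0.38 and was the 1 gene lower at p under 0.05 before adjustment. The part of these genes in the TCR values was not tested. In such bulk RNA a larger share of cells with a transcript and more of it per cell cannot be told apart.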

How the data were processed

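RNA of 4 samples was measured on Affymetrix GeneChip arrays, 2 with GSI and 2 with DMSO, grouped by sample titles because the treatment text is the same for all. The deposited values are log2 expression made with RMA, per the submitters' processing notes, with its version and settings not given in the sources used here. RMA removes background, brings the arrays to a common distribution and combines the probes of a set. No probe-level files were used here. For arrays, the number of samples limits the precision.

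The 64 control probe sets were left out. GSI was compared with DMSO over all 45037 others in a two-sided test with limma 3.58.1 (R 4.3.3; lmFit, then eBayes at default settings), followed by Benjamini-Hochberg adjustment. Calls had an adjusted p under 0.05, on 5.77 total degrees of freedom. Intervals are 95% confidence intervals of that fit, and folds are back-transformed log2 differences. Symbols came from the platform annotation and were updated through RefSeq (GRCm38.p6), which held all 18 TCR probe sets' genes. That assembly was used only for names, chromosomes and gene order. For gene lists, each of 18193 genes was read from its brightest probe set with only 1 symbol, with p-values from the fit over all probe sets. Genes of a list without one were not analysed here.

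The TCR loci as the subject, and with them their probe sets, the lists and the tests, were chosen with earlier results of these data known, while the probe sets were picked out by symbol. Named were all TCR probe sets and the called genes of the 3 TCR-related lists, or the 2 smallest p of a list without calls. Uncalled list genes, marker genes and neighbours were named with their values in view. The alternatives were a filter on dim probe sets, another prior, centring, cyclic loess, a replicate block, 1 probe set per gene, a minimum change of 2-fold and the omission of each array.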

Additional observations from a re-analysis of the deposited data

How the results depend on the processing

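The 3 TCR calls, 3 higher and 0 lower, were the same with a 2-fold minimum, dim probe sets left out, centred arrays, cyclic loess and the replicate number as a block. With an intensity trend and robust prior 4 were higher, Trav12n-1 being added, and with 1 probe set per gene 1 was, since only 1 Trav9d-3 probe set was then tested. With any array left out 0 TCR probe sets were higher, in fits that take the spread of a lone array from the other group. Calls over all probe sets numbered 628, against 310 with a 2-fold minimum, 1553 with dim probe sets left out, 2372 with the trend and robust prior, 65 with the replicate block and 0 with any array left out. The total was 916 with centred arrays, 809 with cyclic loess and 750 of 18193 with 1 probe set per gene. The labels do not say that a replicate number marks a shared culture, and deviations of same-numbered arrays correlated at 0.0695 across probe sets, so the block is given only here. Under it the 3 Trav9d-3 calls had adjusted p of 0.0405 to 0.0450, while Ptcra (0.0593), Cd8a (0.0818), Cd8b1 (0.0752), Cd247 (0.0886), Themis (0.139), Lig4 (0.138), Lef1 (0.122), Gzma (0.0665) and Slc7a7 (0.0744) did not pass, and Maf (0.0318) did. Of uncalled probe sets, 1427766_at changed sign with cyclic loess (0.0111). With 1 array left out it ranged from -0.136 to 0.114, Trav6-3 from -0.0348 to 0.330, Trav13-5 from -0.0325 to 0.057, Tcra from -0.0108 to 0.0982, Trbv1 (1452205_x_at) from -0.0965 to 0.0238, and Trgv4 from -0.214 to 0.0566 (1422189_x_at) and from -0.480 to 0.120 (1427802_a_at). The dim filter left 10 of 18 TCR probe sets, and those under it are limited by low signal.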

Other observations

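The immunoglobulin loci, which assemble B cell receptor genes from segments in the same way, were read as a comparison chosen after the TCR values were seen. Of 51 probe sets annotated to them, 43 lay under the median of all values, and 1 rose and 0 fell (limma over all probe sets), beside 0.948% and 0.446% of all probe sets. Before adjustment 2 were higher and 1 lower at p under 0.05, beside 8.17% and 8.23% of all probe sets, so these counts before adjustment lay under the share over the whole array. The 2 brightest were annotated to Ighm, the constant region gene of the heavy chain mu. Probe set 1427329_a_at read 8.84 and 9.21 with GSI, against 7.90 and 8.04 with DMSO, a 2.08-fold rise (limma, adjusted p = 0.0383). Probe set 1427351_s_at read 10.12 and 10.50 with GSI, against 9.08 and 9.37 with DMSO, a 2.12-fold difference (limma, adjusted p = 0.0504). The 9 other probe sets annotated to Ighm alone had adjusted p over 0.5. Of 6 B cell markers, Cd79a, Cd79b, Ms4a1 and Ebf1 lay under the median of all values, while Pax5 read 4.99 with GSI and 4.97 with DMSO, and Blnk 5.33 with GSI and 4.85 with DMSO, as group means. Blnk differed by 0.48 and did not pass. By mean, 3 of the 6 B cell markers were higher with GSI and 3 lower, with a median log2 difference of -0.0019. The call for 1427329_a_at was lost under the replicate block (adjusted p = 0.0778).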
